A study of Mus musculus with 10 samples.

Results

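The 10 immediate early genes Fos, Fosb, Jun, Junb, Egr1, Egr2, Ier2, Ier3, Atf3 and Dusp1 were taken by symbol from a table of transcript abundances in dissected mouse cortex at embryonic day 12. All 10 symbols were found among the 24814 genes of the table. The table covers 10 libraries of polyadenylated RNA, each labelled as 1 animal. Its unit is TPM, transcript abundance scaled per transcript length and to the same total in every library, so that levels of different genes can be set side by side.

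The 5 cKO (conditional knockout) libraries came from embryos with Emx1 Cre/+ and Zbtb7a fl/fl, and the 5 WT libraries from embryos with Emx1 Cre/+ and Zbtb7a +/+. Cre was thus present in both genotypes. The Emx1-Cre driver acts in dorsal telencephalic progenitors and in the cells they give rise to, and vessels, blood and meninges in the dissected tissue are outside that lineage. Litter 3 gave cKO 4, WT 3 and WT 4, litter 5 gave cKO 5 and WT 5, and litter 1 gave cKO 1, cKO 2, cKO 3, WT 1 and WT 2. Zbtb7a itself averaged 4.46 ± 1.02 TPM in cKO and 9.59 ± 2.32 TPM in WT libraries (SD, n = 5 each), and its ranges did not overlap.

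Immediate early genes are transcribed within minutes of a stimulus, with no need for new protein synthesis, from promoters that already carry CREB, SRF with its partners, or other signal-activated factors. Growth factors, synaptic activity, cell stress and the handling of tissue all induce them, and many of their mRNAs are short-lived. Fos and Jun family proteins pair through leucine zippers to form AP-1, and Dusp1 removes the activating phosphates from MAP kinases, which closes the loop. The genes were compared here between genotypes, as the study's design implies, and between litters, which the labels name as the batch.

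The start-site windows of 4 members are shown because they carry the short sequences through which these genes are known to be switched on, or, for Jun, because the clearest difference between litters concerned that gene. Each is a RefSeq window on GRCm38.p6 from 250 bases before to 50 bases after an annotated transcript start, printed on the coding strand. Jun is at chr4:95052173-95052472 (minus strand), Fos at chr12:85473640-85473939 (plus), Egr2 at chr10:67537619-67537918 (plus) and Dusp1 at chr17:26508423-26508722 (minus). Capitals mark TNACNTCA (the form bound by ATF and Jun dimers) in Jun, TGACG (1 arm of a CRE, the palindromic CREB site) and TATAA in Fos, the CArG box (the SRF site) and TGACG on either strand in Egr2, and TGACGTCA (a full CRE) and TGACG in Dusp1.
Jun: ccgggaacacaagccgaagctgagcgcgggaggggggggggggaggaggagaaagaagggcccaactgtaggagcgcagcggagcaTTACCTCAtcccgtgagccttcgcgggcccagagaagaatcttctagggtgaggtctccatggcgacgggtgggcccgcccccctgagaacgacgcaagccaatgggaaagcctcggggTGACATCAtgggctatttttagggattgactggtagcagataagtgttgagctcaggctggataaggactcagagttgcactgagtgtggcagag
Fos: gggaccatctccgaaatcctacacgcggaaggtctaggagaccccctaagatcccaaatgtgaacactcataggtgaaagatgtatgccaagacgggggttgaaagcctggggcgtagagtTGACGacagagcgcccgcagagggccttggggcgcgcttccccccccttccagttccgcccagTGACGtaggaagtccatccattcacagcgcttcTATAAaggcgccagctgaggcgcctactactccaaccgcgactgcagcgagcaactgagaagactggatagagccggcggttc
Egr2: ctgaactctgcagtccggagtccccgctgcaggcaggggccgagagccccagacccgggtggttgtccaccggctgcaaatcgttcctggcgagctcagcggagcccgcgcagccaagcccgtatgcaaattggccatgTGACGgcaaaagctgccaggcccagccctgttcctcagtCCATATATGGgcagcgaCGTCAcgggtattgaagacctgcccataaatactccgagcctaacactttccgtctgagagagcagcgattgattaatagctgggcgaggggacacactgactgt
Dusp1: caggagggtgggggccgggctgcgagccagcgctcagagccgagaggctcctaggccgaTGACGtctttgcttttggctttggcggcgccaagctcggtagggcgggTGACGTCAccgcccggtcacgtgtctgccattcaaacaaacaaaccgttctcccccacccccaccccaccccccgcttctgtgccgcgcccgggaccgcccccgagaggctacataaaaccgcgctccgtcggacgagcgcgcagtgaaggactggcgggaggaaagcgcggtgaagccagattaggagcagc

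Jun held TNACNTCA as TTACCTCA at 164 bases and as TGACATCA at 45 bases before the start. Fos held TGACG at 129 and 66 bases and TATAA at 33 bases before the start. Egr2 had a CArG box 72 bases before this start, and Dusp1 a full CRE at 143 bases. Windows were found for 8 of the 10 members. Egr1 and Ier2 had none and were not searched for any of these sequences. On either strand, TGACG stood in windows of 6 of the 8 (Atf3, Dusp1, Egr2, Fos, Fosb and Junb) and in 20.8% of all 32851 windows. TATAA stood in 4 of the 8 (Egr2, Fos, Ier3 and Junb) and in 24.9% of all windows, and TNACNTCA in 3 (Atf3, Dusp1 and Jun) and in 16.4%. The full CRE was found only in the Dusp1 window among the 8, and in 1.79% of all windows. The CArG box was found only for Egr2 among the 8, and in 1.63% of all windows. Sites more than 250 bases before a start were outside the windows, so a member without a match here may carry one farther upstream. TGANTCA, the usual AP-1 site, was in none of the 8 and in 7.81% of all windows, and GCGTGGGCG, the EGR site, was in none and in 0.612%. A full CRE also matches TGACG and TNACNTCA, so these counts overlap, and Egr2 has 5 windows because it has several starts.

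The principal transcripts of the members are compact. On GRCm38 with GENCODE M21 annotation, Jun (ENSMUSG00000052684) lies on chromosome 4 at 95049034 to 95052222, Junb (ENSMUSG00000052837) on chromosome 8 at 84974484 to 84978718, and Ier2 (ENSMUSG00000053560) on chromosome 8 at 84661331 to 84662852. Fos (ENSMUSG00000021250) lies on chromosome 12 at 85473890 to 85477273, Fosb (ENSMUSG00000003545) on chromosome 7 at 19302696 to 19310051, and Atf3 (ENSMUSG00000026628) on chromosome 1 at 191170296 to 191218039. Egr1 (ENSMUSG00000038418) lies on chromosome 18 at 34859823 to 34864984 and Egr2 (ENSMUSG00000037868) on chromosome 10 at 67535475 to 67542188. Dusp1 (ENSMUSG00000024190) and Ier3 (ENSMUSG00000003541) are both on chromosome 17, at 26505590 to 26562128 and at 35821684 to 35822923. Jun, Junb and Ier2 have a single exon in their principal transcript. The members' principal transcripts span 1240 to 13045 bases of the genome, with a median of 3290, against a median of 22200 over 12104 protein-coding genes in the test. The median number of exons was 2.5 in members and 9 in those genes.

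AU-rich elements in a 3′ UTR are known to shorten the life of an mRNA. TATTTAT, the core of such an element, was present in the 3′ UTR of 6 of the 10 members, and in 26.7% of the protein-coding genes tested. Ier3 held 4 copies, Dusp1 held 3 and Fos 2, and Fosb, Jun and Atf3 held 1 each. Junb, Egr1, Egr2 and Ier2 held none. Per 1000 bases of 3′ UTR this came to 1.16 copies in members and 0.294 copies in the tested genes.

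The members spread over a wide range of levels. Jun and Ier2 were among the abundant transcripts of this tissue, Dusp1 was intermediate, and Fos, Egr2 and Fosb averaged under 1 TPM. Over the 10 libraries the mean was 80.6 TPM for Jun, 60.2 for Ier2 and 20.1 for Dusp1. It was 2.96 TPM for Ier3, 2.85 for Junb, 2.61 for Egr1 and 1.22 for Atf3. It was 0.602 TPM for Fos, 0.233 for Egr2 and 0.056 for Fosb. Jun stood at percentile 91.8 of the means of all genes detected, and Fos at percentile 39.5.

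Only the steps beside Dusp1 separated neighbours in every library. Ier2 was above Dusp1 in all 10 libraries without overlap of their ranges, and so was Dusp1 above Ier3. Jun was above Ier2 in 8 of 10 libraries, Ier3 above Junb in 6 and Junb above Egr1 in 6, so the order within those pairs was not fixed. Egr1 exceeded Atf3 in 9 libraries and Atf3 exceeded Fos in 7, with overlapping ranges. Fos, Egr2 and Fosb did not reach 1 TPM in at least 5 libraries, the minimum for the test, and are given as values only. The other 7 members were tested. Read depth cannot be derived from TPM, so whether a low value rests on a few reads is unknown.

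**Figure D1:**
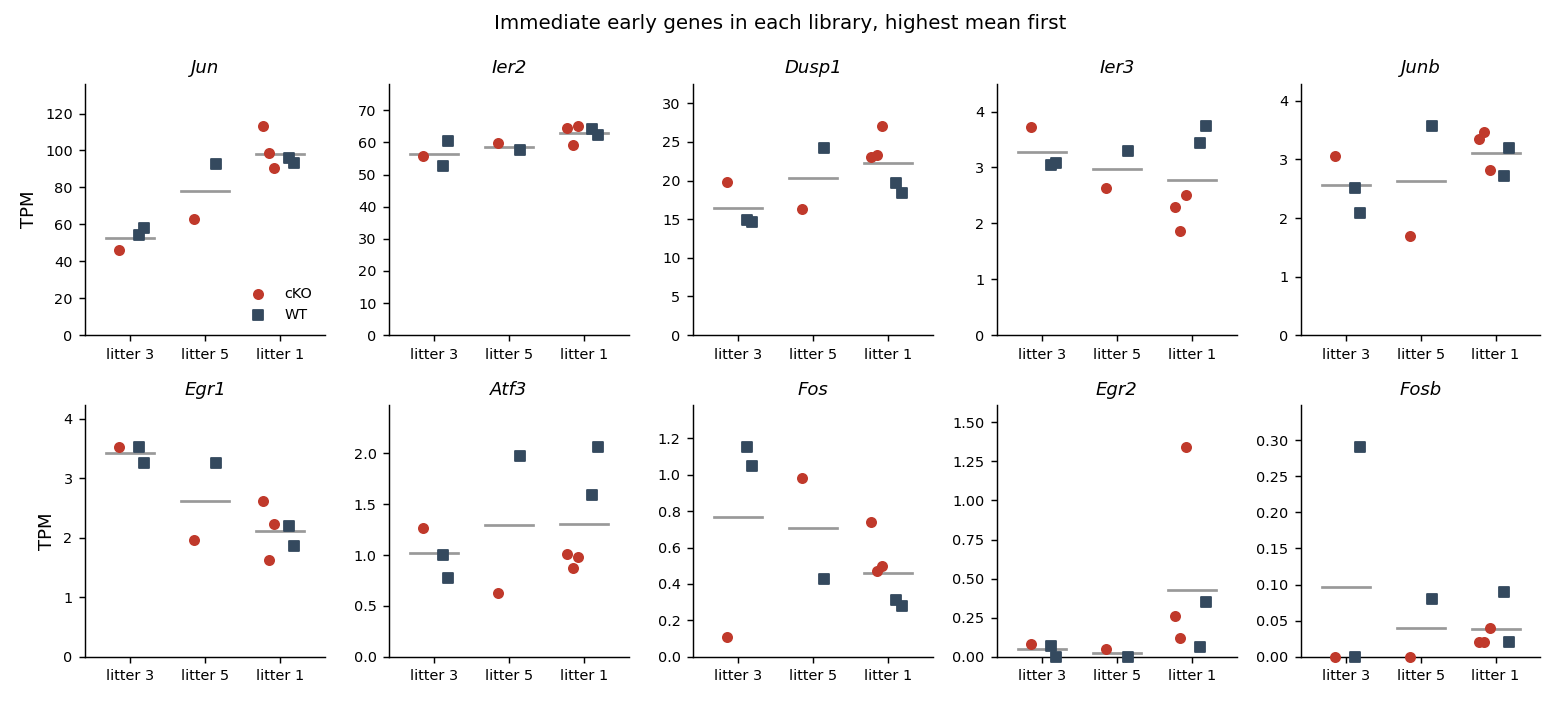
TPM of the 10 members in each of the 10 libraries, 1 panel a gene with its own linear axis from 0, grouped by litter. Red circles are cKO and dark squares WT libraries, and grey lines are litter means. Jun in litter 3 sits between 46.2 and 57.8 TPM, below all 5 libraries of litter 1, and the cKO and WT ranges overlap for every gene.

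The transcripts of the AP-1 families were represented unequally, and no protein was measured. The Jun family (Jun, Junb and Jund) summed to 332 ± 62.0 TPM and the Fos family (Fos, Fosb, Fosl1 and Fosl2) to 2.13 ± 0.584 TPM (SD, n = 10 each). Within the Jun family Jund, which is expressed without induction in most cells, averaged 248 TPM. Within the Fos family Fosl2 averaged 1.45 TPM, above Fos, and Fosl1 was listed at 0 in 9 libraries. The Egr family summed to 3.32 ± 0.935 TPM (SD, n = 10), most of it Egr1, with Egr3 at 0.481 and Egr4 at 0.004 TPM. Dusp1 was not the leading MAP kinase phosphatase of its list. Dusp4 averaged 107 TPM, and Dusp6, which acts on ERK, averaged 16.3 TPM.

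No immediate early gene passed the test between genotypes. None of the 7 tested members was called between cKO and WT (limma, Benjamini-Hochberg adjusted p under 0.05 over 13833 genes), where 0.0361% of all tested genes were called. The cKO and WT ranges overlapped for all 10 members, and 0.282% of tested genes had ranges that did not. The differences, as log2(TPM + 1) in cKO minus WT with litter as a term, were positive for 2 members and negative for 5, with a median of -0.07 beside -0.01 over all tested genes. The limma adjusted p was 1.00 for each of the 7.

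Jun, the inducible AP-1 component with the highest level among the members, measured 113, 98.5, 90.3, 46.2 and 62.9 TPM in cKO 1 to cKO 5, and 96.1, 93.3, 54.3, 57.8 and 92.9 TPM in WT 1 to WT 5. The low values in both genotypes were those of litter 3 and of cKO 5, and the genotypes overlapped. The fitted difference was -0.15 (SE 0.11, 95% interval -0.40 to 0.09), and 0.03 without the litter term. Within litters, the difference of means on the same log2 scale was 0.08 in litter 1, -0.27 in litter 3 and -0.56 in litter 5.

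Junb, a Jun paralogue that pairs with the same Fos partners, had 3.35, 3.47, 2.82, 3.06 and 1.69 TPM in cKO 1 to cKO 5 and 2.72, 3.20, 2.52, 2.09 and 3.58 TPM in WT 1 to WT 5. The lowest and the highest of these values were the cKO and the WT library of litter 5. The fitted difference was -0.03 (SE 0.18, 95% interval -0.43 to 0.37).

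Fos, the inducible AP-1 partner most used as a marker of neuronal activity, was listed at 0.74, 0.47, 0.50, 0.11 and 0.98 TPM in cKO 1 to cKO 5 and at 0.31, 0.28, 1.15, 1.05 and 0.43 TPM in WT 1 to WT 5. Its cKO libraries were above the WT libraries in litters 1 and 5 and below them in litter 3. Fosb, its paralogue, was listed at 0.02, 0.02, 0.04, 0 and 0 TPM in cKO 1 to cKO 5 and at 0.09, 0.02, 0, 0.29 and 0.08 TPM in WT 1 to WT 5. No library reached 1 TPM for Fosb.

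Atf3, a stress-induced member of the ATF/CREB family, had 1.01, 0.87, 0.98, 1.27 and 0.63 TPM in cKO 1 to cKO 5 and 1.59, 2.06, 1.00, 0.78 and 1.97 TPM in WT 1 to WT 5. The cKO libraries were the lower ones in litters 1 and 5, and cKO 4 was the higher one in litter 3. Its fitted difference of -0.38 (SE 0.20, 95% interval -0.81 to 0.06) was the farthest from 0 among the 7 members and had an unadjusted limma p of 0.0856, with an adjusted p of 1.00.

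Egr1, a zinc finger factor induced through SRF, had 2.62, 1.62, 2.24, 3.52 and 1.97 TPM in cKO 1 to cKO 5 and 2.20, 1.86, 3.52, 3.25 and 3.26 TPM in WT 1 to WT 5. The fitted difference was -0.07 (SE 0.16, 95% interval -0.43 to 0.29). Egr2, its relative with a role in hindbrain patterning and myelination, was listed at 0.26, 0.12, 1.34, 0.08 and 0.05 TPM in cKO 1 to cKO 5 and at 0.06, 0.35, 0.07, 0 and 0 TPM in WT 1 to WT 5. A single library, cKO 3, was above 1 TPM.

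Dusp1, the feedback phosphatase of p38, JNK and ERK, had 23.1, 23.4, 27.1, 19.8 and 16.3 TPM in cKO 1 to cKO 5 and 19.6, 18.4, 14.9, 14.6 and 24.3 TPM in WT 1 to WT 5. All cKO libraries of litters 1 and 3 were above the WT libraries of the same litter, and cKO 5 was below WT 5. The fitted difference was 0.17 (SE 0.14, 95% interval -0.15 to 0.50), and within litters it was 0.35 in litter 1, 0.40 in litter 3 and -0.55 in litter 5.

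Ier3, which modulates ERK signalling and survival, had 2.30, 1.87, 2.51, 3.73 and 2.64 TPM in cKO 1 to cKO 5 and 3.43, 3.75, 3.04, 3.08 and 3.29 TPM in WT 1 to WT 5. It was lower in each cKO than in each WT library of litters 1 and 5 and higher in cKO 4 than in WT 3 and WT 4, and the fitted difference was -0.25 (SE 0.16, 95% interval -0.61 to 0.11). Ier2, a nuclear protein of the growth factor response, was the steadiest member, at 60.9 ± 3.95 TPM in cKO and 59.4 ± 4.48 TPM in WT libraries (SD, n = 5 each). Its fitted difference was 0.00 (SE 0.07, 95% interval -0.14 to 0.15). The residual SD of Ier2 after litter and genotype stood at percentile 4.96 of all tested genes, against percentile 48.5 for Jun and 73.3 for Atf3. On this scale the SD depends on the level of a gene. Relative to the trend with level, the percentiles were 9.47 for Ier2, 78.7 for Jun and 33.1 for Atf3.

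In litter 5, with 1 library of each genotype, cKO 5 was below WT 5 in 6 of the 7 tested members, all except Ier2, and in 64.7% of all tested genes. No such difference has a replicate within that litter. The test of whether the genotype difference itself differed between litter 1 and the remaining litters called no gene, members included (0% of 13833 genes, limma, with 687 at an unadjusted p under 0.05). The smallest unadjusted p among members was that of Jun, at 0.0183, with an interaction term of 0.48 (SE 0.17) and an adjusted p of 0.952.

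**Figure D2:**
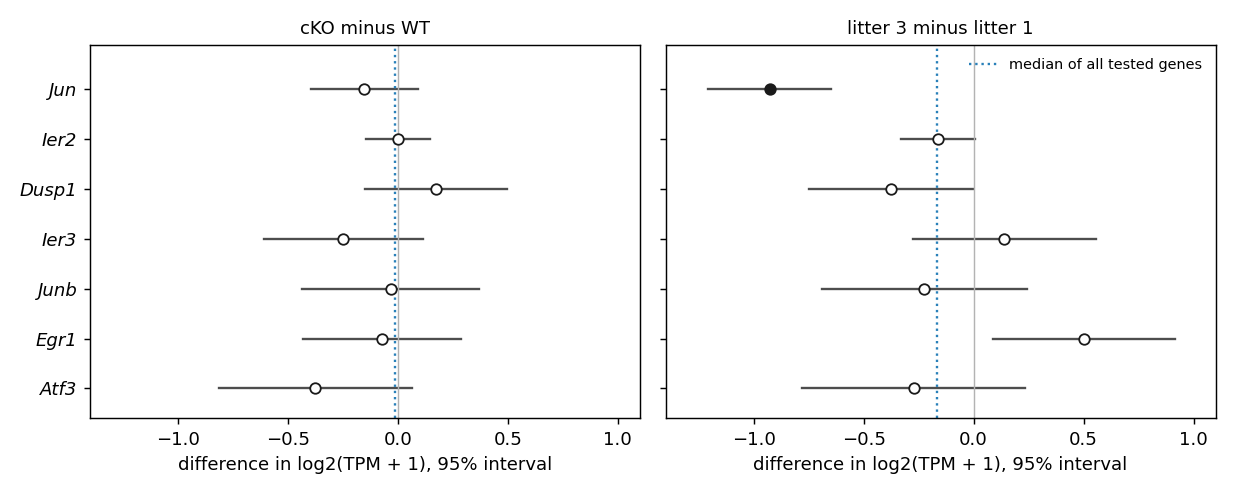
Differences in log2(TPM + 1) for the 7 tested members, cKO minus WT (left) and litter 3 minus litter 1 (right), with 95% intervals from limma. The filled point passed an adjusted p under 0.05, open points did not, and the dotted line is the median of all tested genes. Jun stands apart on the right at -0.93, and every interval on the left includes 0.

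Between litters 3 and 1 Jun was the member that passed the test. Jun was 52.8 ± 5.95 TPM in litter 3 (n = 3) and 98.3 ± 9.01 TPM in litter 1 (n = 5, SD), a ratio of 0.537. Its 3 values in litter 3 were 46.2 TPM in cKO 4, 54.3 TPM in WT 3 and 57.8 TPM in WT 4, and its 5 values in litter 1 were 90.3 to 113 TPM, so the litters did not overlap in either genotype. The fitted difference was -0.93 (SE 0.13, 95% interval -1.21 to -0.65, limma adjusted p 0.0029). Jun was the only one of the 7 tested members to be called. Of all tested genes 31.6% were called, 25.8% lower and 5.8% higher in litter 3, so that a call in this comparison was common.

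The median difference of all tested genes in litter 3 minus litter 1 was -0.16. After quantile normalisation it was -0.01, with 1612 genes higher and 1945 lower in place of 803 higher and 3575 lower, and the Jun difference was then -0.73 with an adjusted p of 0.00613. Jun was called in all 18 alternative settings run for this comparison, with differences of -0.99 to -0.73 and adjusted p-values of 0.000894 to 0.0133.

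Egr1 lay in the other direction without passing the test. It was 3.52 TPM in cKO 4, 3.52 TPM in WT 3 and 3.25 TPM in WT 4 of litter 3, and 1.62 to 2.62 TPM in the 5 libraries of litter 1. The litters did not overlap, as in 37.4% of all tested genes, 30.1% with litter 3 lower, like Jun, and 7.34% with litter 3 higher, like Egr1. The difference was 0.50 (SE 0.19, 95% interval 0.09 to 0.91) with a limma adjusted p of 0.0644. It passed the threshold after quantile normalisation (0.54, adjusted p 0.0376) and with array weights (0.51, 0.0339). It also passed without cKO 5, WT 5 or both (0.53). These are in effect 1 refit, because the litter term fits a lone litter 5 library exactly. Over all settings the adjusted p of Egr1 was 0.0339 to 0.222.

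Dusp1 was 16.4 ± 2.93 TPM in litter 3 and 22.3 ± 3.44 TPM in litter 1 (SD, n = 3 and 5), with overlapping ranges. Its difference of -0.37 (SE 0.17) had a limma adjusted p of 0.115. It passed only without cKO 5, WT 5 or both (-0.32), again 1 refit, and its adjusted p reached 0.468 over all settings. Ier2 was 56.3 ± 3.84 TPM in litter 3 and 63.1 ± 2.43 TPM in litter 1, a difference of -0.16 (SE 0.08, adjusted p 0.127), and its sign turned to 0.05 after quantile normalisation. Ier3 at 0.14, Junb at -0.22 and Atf3 at -0.27 had limma adjusted p-values of 0.394 to 0.606. The median over the 7 members was -0.22, beside -0.16 over all tested genes.

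The 2 libraries of litter 5 stood apart from each other for Jun. It measured 62.9 TPM in cKO 5 and 92.9 TPM in WT 5, of which the first lay between litters 3 and 1 and the second inside the range of litter 1. Against litter 1 the difference for Jun was -0.37 (SE 0.14, limma adjusted p 0.212), and no member was called, where 0.0217% of all genes were. These values rested on which library of litter 5 was kept. Without WT 5 the Jun difference was -0.62 (adjusted p 0.0463) and that of Dusp1 -0.57 (adjusted p 0.0481), where 7.84% of all genes were called. Without cKO 5 they were -0.10 (adjusted p 0.966) for Jun and 0.35 (adjusted p 0.894) for Dusp1, with its sign turned. Against litter 3 the difference for Jun was 0.56 (SE 0.15, limma adjusted p 0.222), with no overlap, as in 28.6% of tested genes, 21% with litter 5 higher. No member was called there, where 0.0289% of genes were. Without cKO 5 the Jun difference was 0.80 (adjusted p 0.0429), where 2.39% of genes were called, and without WT 5 it was 0.28 (adjusted p 0.715).

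Marker genes of cell types moved with the same litters. Of 12 markers of newborn cortical neurons, 10 were called lower in litter 3 than in litter 1 and none higher (median -1.07). The calls over all tested genes were 25.8% lower and 5.8% higher. The summed level of the 12 was 1120 to 1280 TPM in litter 3, 1220 to 2100 TPM in litter 5 and 1800 to 2310 TPM in litter 1. Within litter 5 this sum was 1220 TPM in cKO 5 and 2100 TPM in WT 5, the library with the higher Jun. The sums of other lists differed between these libraries too. In cKO 5 and WT 5 they were 23.8 and 220 TPM for ventral telencephalon and 1130 and 430 TPM for hem and choroid plexus. They were 146 and 289 TPM for endothelium, 55.0 and 78.5 TPM for pericytes, and 247 and 327 TPM for mesenchyme. Erythroid sums were 26500 and 24000 TPM, microglial sums 79.3 and 59.5 TPM, and apical progenitor sums 3530 and 3950 TPM. Of 12 markers of apical progenitors, 9 were called lower and none called higher (median -0.49, and 5 called lower after quantile normalisation). Their sums were 3100 to 3330 TPM in litter 3 and 4240 to 4460 TPM in litter 1.

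Mesenchymal and erythroid markers were called in the opposite direction. Of 14 mesenchymal markers, 9 were called higher in litter 3 (median 0.93, sums of 512 to 1120 TPM against 239 to 367 TPM in litter 1). Of 12 erythroid markers, 11 were called higher (median 1.38, 41900 to 55800 TPM against 17300 to 19700 TPM). Endothelial markers were called higher for 2 of 14 and microglial markers for 2 of 11 tested, beside 5.8% of all tested genes. After quantile normalisation these counts were 4 and 3, and the mesenchymal and erythroid counts were 10 and 11. In that setting 1612 of 13833 genes were called higher. Of 7 tested pericyte markers only Notch3 was called, lower (25.8% of all tested genes were), with 2 called higher beside it after quantile normalisation. Every marker of these 7 lists was above 0 in some library of each litter. Of 13 tested hem and choroid plexus markers only Msx1 was called, higher, and none of 8 tested markers of ventral telencephalon was. Nkx2-1, 1 of the 14 listed markers of ventral telencephalon, was at 0 in every library of litter 1. The sum of that list was 26.7 to 131 TPM in litter 1. It was 17.7 to 107 TPM in litter 3 and 23.8 to 220 TPM in litter 5. Fewer cells of a type and less RNA per cell cannot be told apart in bulk tissue, and the part of tissue makeup in the Jun and Egr1 differences was not tested.

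**Figure D3:**
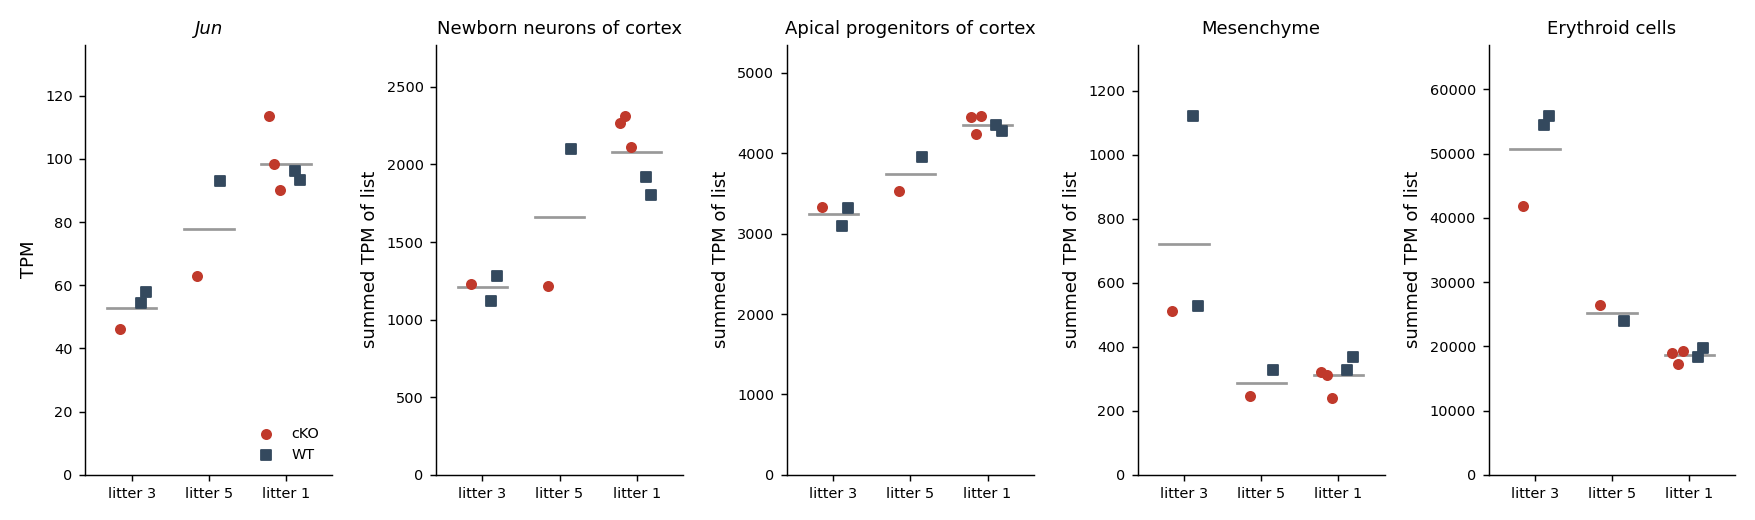
Jun in TPM (left) and the summed TPM of 4 marker lists in each library, by litter, with linear axes from 0. Red circles are cKO and dark squares WT libraries, and grey lines are litter means. Jun and the newborn neuron sum are both low in litter 3 and in cKO 5 (a sum of 1220 TPM). Both are high in WT 5 (a sum of 2100 TPM) and litter 1, and the erythroid sum is highest in litter 3. Lists not drawn also differ between cKO 5 and WT 5, such as ventral telencephalon (23.8 and 220 TPM) and hem and choroid plexus (1130 and 430 TPM).

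Other rapid-response genes gave the setting for these values. In cKO minus WT, none of the 6 related lists had a called member, and their medians lay between -0.12 and 0.00. In litter 3 minus litter 1, 25.8% of all tested genes were called lower and 5.8% higher. There, 2 of 15 other rapid-response transcription factors were called, both lower. Nr4a2, an orphan nuclear receptor induced with Fos in many cells, was 6.88 ± 0.401 TPM in litter 3 and 14.9 ± 2.47 TPM in litter 1 (SD, n = 3 and 5), a difference of -1.02 (limma adjusted p 0.00306). Jund was 196 ± 11.7 TPM in litter 3 and 277 ± 14.5 TPM in litter 1, a difference of -0.50 (adjusted p 0.0032), so that the Jun family as a whole summed to 240 to 266 TPM in litter 3 and 349 to 407 TPM in litter 1.

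Of 28 rapid-response signalling and effector genes, 8 were called lower and 2 higher in litter 3 minus litter 1. That is near the 25.8% lower and 5.8% higher of all tested genes. After quantile normalisation these counts were 2 lower and 4 higher. Zfp36l1, which binds AU-rich elements, fell by 0.56 on the log2 scale (limma adjusted p 0.00407), and Btg2, an antiproliferative gene of neurogenic progenitors, had -0.49 (0.00504, and 0.0564 after quantile normalisation). Ctgf, a secreted matrix protein, was 8.63 ± 1.09 TPM in litter 3 and 3.50 ± 0.595 TPM in litter 1 (SD, n = 3 and 5), a difference of 1.00 (adjusted p 0.00498).

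Of 14 MAP kinase feedback genes, 4 were called lower and 2 higher in litter 3, beside 25.8% and 5.8% of all tested genes. Dusp4, the most abundant phosphatase of the group, was 66.8 ± 7.19 TPM in litter 3 and 132 ± 5.86 TPM in litter 1 (-1.03, limma adjusted p 0.00306), and Spred2 and Dusp10 had -0.71 and -0.84. Etv4, a transcription factor downstream of FGF signalling, had 0.83 (adjusted p 0.0221). Of 23 upstream activators, 11 were called lower and none higher. They included Crebbp, a coactivator of CREB, at -0.94, Rps6ka5, a kinase of CREB and histone H3, at -0.82, and Creb1 itself at -0.46 (limma adjusted p 0.00463, 0.00464 and 0.0128). After quantile normalisation 3 were called lower and 1 higher, and Creb1 did not pass (adjusted p 0.0791).

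Of 12 other bZIP partners, 3 were called lower, near the 25.8% of all tested genes, and 1 after quantile normalisation. Atf6, a sensor of the unfolded protein response, led the called genes at -0.54 (limma adjusted p 0.0164). Atf7 had -0.78 without passing (limma adjusted p 0.0638). Of 15 heat shock genes, 8 were called lower and 2 higher in litter 3, beside 25.8% and 5.8% of all tested genes. Hsph1, a chaperone cofactor, was 103 ± 3.30 TPM in litter 3 and 165 ± 7.03 TPM in litter 1 (SD, n = 3 and 5), a difference of -0.67 (adjusted p 0.00244). It was 94.1 ± 3.15 TPM in litter 5 (SD, n = 2). Hsph1 and Hspa8 were also called lower in litter 5 than in litter 1 (-0.80 and -0.55, limma adjusted p 0.00897 and 0.016). There, 0.0217% of all tested genes were called.

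**Figure D4:**
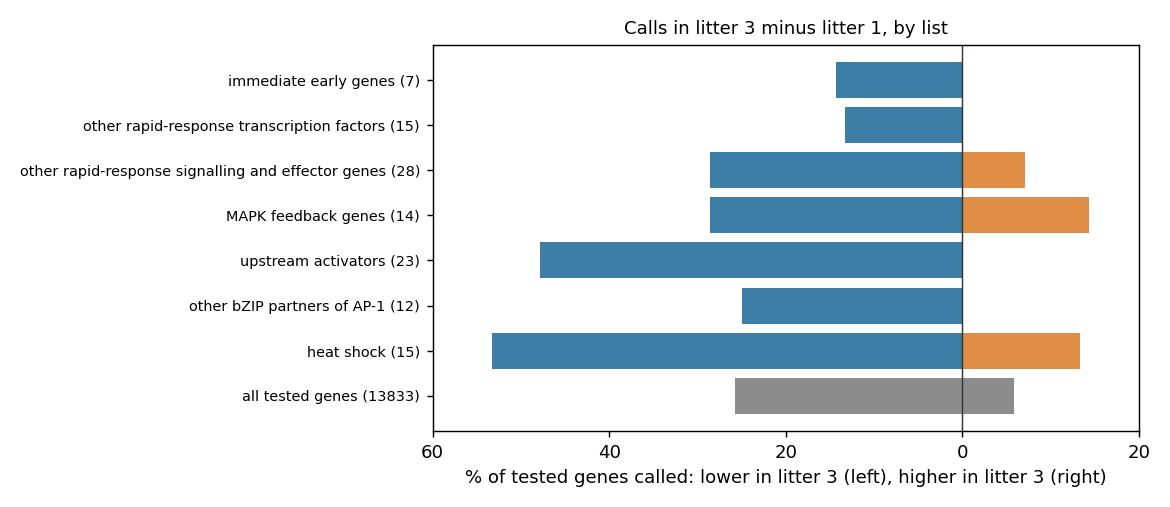
Share of the tested genes of each list that passed an adjusted p under 0.05 in litter 3 minus litter 1, lower in litter 3 to the left and higher to the right, with the number tested in parentheses and all tested genes in grey. Among immediate early genes 1 of 7 was called, and the background was 25.8% lower and 5.8% higher.

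Members were also compared in pairs across libraries. Among 21 pairs of the 7 tested members, Pearson's r over the 10 libraries ran from -0.59 to 0.708 with a median of 0.0782, and it was above 0 in 13 pairs. No pair had an adjusted p under 0.05 (permutation test with 100000 permutations, two-sided, Benjamini-Hochberg over 21 pairs), and the smallest was 0.229. The largest r, 0.708, was that of Junb with Dusp1 (Spearman's rho 0.733, permutation p 0.021 and 0.0209, adjusted 0.229 and 0.337). Without the 2 libraries farthest from the median of Junb it was 0.556, within the 5 libraries of litter 1 it was -0.000959, and after removal of litter and genotype means over the 10 libraries it was 0.777. With those means removed, r over the 21 pairs ran from -0.504 to 0.777 with a median of 0.207 and was above 0 in 15. These values rest on 6 residual degrees of freedom, with cKO 5 and WT 5 made equal and opposite, and were not tested. Values of the libraries share their litters and their cell makeup.

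The genes with the pattern most like the mean of the 7 standardised members, over the 10 libraries, were Rbm28, Dcbld2, Epas1, Slc7a5 and Tmem104, with r of 0.955 to 0.936. After removal of litter and genotype means they were Upf2, Hnrnpul1, Fads1, Lrrc32 and Hnrnpd, with r of 0.993 to 0.989. Both sets are the highest r among all tested genes outside the members. The removal leaves 6 residual degrees of freedom and makes the values of cKO 5 and WT 5 equal and opposite. Since cKO 5 was below WT 5 in 64.7% of all tested genes, such r values do not show a link between genes. The members' own r with that mean, which contains them, ran from 0.009 for Egr1 to 0.825 for Atf3. After removal of litter and genotype means it ran from 0.11 for Ier2 to 0.856 for Egr1.

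Some members share sequence with neighbours, and the use of strand in counting is not stated in the available sources. The antisense gene Junos overlaps 232 of the 3189 bases of Jun and averaged 1.06 TPM. A second transcript of Junb shares 173 exon bases with Prdx2 on the opposite strand, which averaged 1502 TPM, and none of those bases lie in the principal transcript. A second transcript of Dusp1 shares 11 exon bases with Ergic1, again outside the principal one.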

How the data were processed

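RNA was sequenced from 10 cortices at embryonic day 12, with groups and litters taken from the labels, which give 5 libraries per genotype and 3 litters where the series' design text counts 3 cortices per condition and 2 litters. The authors deposited TPM (length-scaled abundances that add up to 1000000 in a library) with 2 decimals for 24814 genes. Per the submitters' processing notes, cutadapt, featureCounts, DESeq2 and mm10 were used, with no versions or roles, and the aligner, the tool behind TPM and the use of strand are not given in the sources used here. Read depth cannot be recovered from TPM, so neither counts nor counting intervals were modelled, and 18991 to 19944 genes were above 0 per library. Spreadsheet dates stood in place of 26 symbols, restored from the identifiers, and 5 columns without a library name were not used. The authors' comparison table of 7 genes holds no member and was not used.

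The 13833 genes that reached 1 TPM in 5 or more libraries were fitted as log2(TPM + 1) in limma 3.58.1 (R 4.3.3), with terms for litter and genotype, 6 residual degrees of freedom, a trended empirical Bayes step, two-sided p-values and 95% intervals. Fold changes on this scale understate those of low genes. Calls are at a Benjamini-Hochberg adjusted p under 0.05 over all tested genes. The pipeline was tested on simulated data with independent normal noise. These did not hold the litter or tissue differences of the real libraries, so the test does not cover them. Replicate spread here is that between single animals from 3 litters.

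The members, the gene lists and the tests were chosen with earlier results of these data known. Named genes are the 10 members, Zbtb7a, up to 4 members of each list with the smallest p, and the 5 genes most like the members' mean pattern, by Pearson's r. Jund, Fosl1, Fosl2, Egr3, Egr4, Dusp4 and Dusp6 were named as relatives of members, and overlapping genes by position, and Notch3, Msx1 and Nkx2-1 after their values were seen. Alternatives were the pseudocount, the filter, 2 rescalings, other covariates, array weights, a replicate block and leaving out each library. Leaving out each litter was added after the data were seen. Replicate numbers are shared between genotypes, but number 3 spans 2 litters, and deviations of same-numbered libraries correlated at -0.291 to 0.303, so the numbers do not pair the libraries. Annotation was GENCODE M21 on GRCm38 and promoter windows were from RefSeq.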

Additional observations from a re-analysis of the deposited data

Results flagged for a closer look

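Among 30 groups of member values by genotype or litter, 4 held a library far from the rest of its group. The groups share libraries, so cKO 3 was flagged for Egr2 in both its genotype and its litter. The chance rate of the rule assumes separate groups and normal values, so this count cannot be set against it. All 4 were in members below the minimum for the test. Egr2 was listed at 1.34 TPM in cKO 3, far above the other cKO libraries and the other libraries of litter 1, and at 0.35 TPM in WT 2, far above the other WT libraries. Fosb was listed at 0.09 TPM in WT 1, far above the rest of litter 1.

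The genotype difference, as cKO minus WT in log2(TPM + 1), changed sign between litters for 5 members, with every cKO library on one side of every WT library in each litter named. Of these, 4 were among the 7 tested members, and 49.5% of all tested genes had such a turned sign. For Fos it was 0.274 in litter 1, -0.919 in litter 3 and 0.469 in litter 5, and this difference between litters was not tested. For Junb it was 0.30 in litter 3 and -0.768 in litter 5. Ier3 had -0.513 in litter 1, 0.22 in litter 3 and -0.237 in litter 5, and Atf3 had -0.528, 0.267 and -0.866 in the same order. Dusp1 had 0.348 in litter 1, 0.403 in litter 3 and -0.547 in litter 5. The interaction test, which sets litter 1 against the other litters together, gave limma adjusted p-values of 0.995 for Ier3 and 0.999 for Junb, Atf3 and Dusp1. Litter 3 has 1 cKO library and litter 5 has 1 library of each genotype.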

How the results depend on the processing

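The Jun difference between litters 3 and 1 was called in each of its 18 alternatives. Of 652 alternative values of members, 584 kept their sign and their side of the threshold. Another 11 passed where the reported value had not (Egr1, Dusp1 and Jun between litters), and 57 changed sign without being called on either side. Leaving out cKO 5, WT 5 or both is in effect 1 refit, counted here as separate values. This holds in litter 3 minus litter 1, in cKO minus WT and in the interaction. Counts over all genes moved more. In cKO minus WT, 5 genes were called as reported, 3 with a filter of TPM of at least 5, 2 with a replicate block in place of litter, 3 with the block beside litter, 3 with Xist as a covariate, and 3 without litter 1 and without litter 5. The replicate block changed no member's call. In litter 5 minus litter 1 (3 as reported) 22 were called with no filter and 0 with array weights, where 1524 had an unadjusted p under 0.05. In litter 5 minus litter 3 (4 as reported) 2 were called after rescaling without globin and mitochondrial genes, 16 with no filter, and 1 with Xist, with array weights and without litter 1. The interaction (0 as reported, 687 at an unadjusted p under 0.05) had 1 call with no filter, 21 without litter 3 and 3 without litter 5. Leaving out each library gave 3 to 5 calls in cKO minus WT, 2585 (without WT 3) to 4524 in litter 3 minus litter 1 (4378 as reported), 0 to 1084 (without WT 5) in litter 5 minus litter 1, 1 to 331 (without cKO 5) in litter 5 minus litter 3, with 56 without WT 4, and 0 to 21 (without cKO 4) in the interaction. The causes were not tested. With 2 libraries in litter 5, a lone library is assumed to vary like the other groups once its partner is left out.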
